A study of Mus musculus with 8 samples.

Results

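The cells described here were non-irradiated MLO-Y4 cells, the control group of a study of an Er:YAG laser. They account for 4 of the 8 samples of the study, and they were chosen by the treatment label alone. No value of the irradiated cells was used, so the account is a description of 1 group with no test between groups. MLO-Y4 is a clonal mouse line derived from long bone of a transgenic animal in which the SV40 large T antigen was driven by the osteocalcin promoter; the labels give the cell type as osteocyte and the genotype as wild type. Per the labels, cells were grown on dishes coated with rat tail collagen in MEMα with 5% fetal bovine serum and 5% bovine calf serum, seeded 72 h before the treatment of the other group, and lysed 6 h after it. The labels do not say whether the medium was also removed from the control dishes. Libraries were made from poly(A)-enriched RNA. The 4 libraries are named C5, C6, C7 and C8 after the columns of the deposited table, which were tied to the group by the letter C alone: the sample titles carry that letter with the numbers 1 to 4, so no column could be tied to a single sample. The labels do not say whether the 4 came from separate cultures, so the SDs below (n = 4 throughout, unless stated) may measure technical spread only.

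Osteocytes are former osteoblasts that have been walled into the matrix they laid down. They extend dendrites through fine canals, couple to each other and to the bone surface by gap junctions of connexin 43, sense load, and signal to osteoclasts through RANKL and to osteoblasts through the Wnt inhibitor sclerostin. Early osteocytes are known for podoplanin and for the phosphate regulator PHEX, and mature ones for sclerostin, MEPE and FGF23. MLO-Y4 is widely used as a model of the early, dendrite-bearing stage.

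The markers given for osteocyte-like cells were present in all 4 libraries. Levels are in CPM (counts per 1000000), each gene's estimated count scaled to the library's total, and in the order C5, C6, C7 and C8 wherever 4 values are given. Pdpn (ENSMUSG00000028583.15), the podoplanin gene, had 478, 498, 482.5 and 503 CPM. Gja1 (ENSMUSG00000050953.11), which encodes connexin 43, had 259, 247, 249.1 and 253 CPM. Sparc (ENSMUSG00000018593.14), the matrix protein osteonectin, had 1837, 1849, 1806 and 1827 CPM. The range over libraries was narrow for these 3 genes, with coefficients of variation (CV, the SD as a percentage of the mean) of 2.42%, 2.12% and 1.01%. Col1a1 (ENSMUSG00000001506.11), the α1 chain of collagen I, had 1139, 1026, 1154 and 1163 CPM, with C6 the lowest. Phex (ENSMUSG00000057457.12) was the weakest of the 5 at 12.6, 16.97, 15.2 and 15.6 CPM, with C5 the lowest and a CV of 12.3%.

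The table lists 55359 gene identifiers. Of these 12089 reached 1 CPM in every library, the level at which a gene counts as expressed below, and 32381 (58.5%) had 0 counts in all 4. A gene between these classes had counts in at least 1 library and stayed under 1 CPM in at least 1. Among 21877 protein-coding genes, 11017 (50.4%) were expressed, 3568 lay between and 7292 were at 0. Counts of expressed members of a list or family below are read against this 50.4%. Those near it set no group apart. By level, 9361 features reached 10 CPM in every library, 2272 reached 100 CPM and 73 reached 1000 CPM. Library totals ran from 46117247 to 49838938 counts, and each library had counts in 19071 to 19302 features. A gene at 0 could still have had up to 3 counts, which is 0.0602 to 0.0651 CPM depending on the library. Low counts scattered more than random sampling of single reads gives, with a variance typically 4.21 times the mean over 4911 genes averaging 5 to 100 counts, so a wider limit of 12 counts, 0.241 to 0.260 CPM, is also used; both cover counting error only.

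The pair of most abundant mRNAs encode secreted matrix proteins. Fn1 (ENSMUSG00000026193.16), fibronectin, had 10762, 11191, 10517.5 and 10600.2 CPM. Spp1 (ENSMUSG00000029304.15), the phosphoprotein osteopontin, had 9269, 9562, 9183 and 9691 CPM. These 2 genes stood above all other nuclear genes in every library. Next came mt-Co1, a mitochondrially encoded oxidase subunit (7099 ± 95.99 CPM), the intermediate filament gene Vim (4903 ± 125 CPM), the elongation factor gene Eef1a1 (4778 ± 76.7 CPM), the ferritin light chain gene Ftl1 (4128 ± 335 CPM), the cytoplasmic actins Actg1 (3970.4 ± 61.2 CPM) and Actb (3564 ± 91.4 CPM), the glycolytic enzyme gene Pkm (3292 ± 85.4 CPM) and the endocytic receptor gene Lrp1 (3103 ± 197 CPM). The feature in the next place, ENSMUSG00000119584.1, has no symbol in the annotation used and varied more, from 2543.5 CPM in C5 to 3279 CPM in C6. The remaining genes of the 20 highest were Lox, Col6a1, Csf1, Eef2, Col6a3, Sdc1, Sparc, Bgn and Col6a2, between 2662 CPM and 1735.5 CPM. Matrix or matrix-linked genes, a class set after the values were seen, held 9 of the 20 places: Fn1, Spp1, Lox, Col6a1, Col6a3, Sdc1, Sparc, Bgn and Col6a2.

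The libraries were not dominated by a few transcripts. The 10 most abundant features took 5.50 ± 0.0532% of all counts, the 100 most abundant 17.2 ± 0.0484% and the 1000 most abundant 49.3 ± 0.0710%. Genes of cytosolic ribosomal proteins took 3.33 ± 0.162% and the mitochondrial genome 1.54 ± 0.0341%. Protein-coding genes held 97.0 ± 0.0574% of counts, pseudogenes 2.06 ± 0.0662% and long non-coding RNA genes 0.475 ± 0.00725%.

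To compare genes with each other, counts were divided by the length of the longest annotated transcript and scaled to the same total in each library as CPM (TPM). On that scale Spp1 led with 16049 ± 472 TPM, followed by mt-Co1 (11788.5 ± 132 TPM) and Ftl1 (10932 ± 725 TPM). Fn1, whose mRNA is long, came in place 16 with 3324 ± 145.5 TPM. In C5, C6, C7 and C8 the Spp1 level was 4.75, 4.72, 4.82 and 5.04 times that of Fn1. The size of this ratio rests on the length used: with the median transcript length of each gene it was 1.73 ± 0.0528, and with the merged exon length 6.21 ± 0.190. The same holds for TPM values in general. Among 362 named genes with counts and a length, 242 moved by over 1.5-fold with the median transcript length and 25 with merged exons.

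All 12 genes of the early osteocyte and dendrite list were expressed, with a median of 235 TPM. On the TPM scale the highest were Capg (ENSMUSG00000056737.15), an actin-capping protein of motile processes (808.5 ± 11.8 TPM), Pdpn (693 ± 19.6 TPM), the caveolin gene Cav1 (612 ± 32.2 TPM), the hyaluronan receptor gene Cd44 (392.5 ± 36.4 TPM), the actin-severing factor gene Dstn (324 ± 14.8 TPM) and the membrane-anchored collagenase gene Mmp14 (305 ± 13.1 TPM). Capg hardly differed between libraries, at 440.0, 440.2, 437 and 448 CPM. Cd44 was highest in C6, at 845, 954, 801 and 833 CPM. The list also held genes of mineral handling. Ank, which exports pyrophosphate, had 192 ± 8.905 CPM, and Enpp1, which makes it, had 173 ± 4.46 CPM. Tnfsf11 (ENSMUSG00000022015.9), the gene of the osteoclast-inducing cytokine RANKL, had 72.7, 91.5, 60.7 and 67.4 CPM; it spread most of the 12, with a CV of 18.1% and C6 above the other 3.

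Of the 8 genes of the mature osteocyte list 1 was expressed, 2 lay between and 5 were at 0. The expressed member was the homeobox gene Irx5, at 19.4, 22.2, 19.1 and 20.4 CPM. Sost (sclerostin), Mepe (a phosphoglycoprotein of osteocyte matrix), Fgf23 (the phosphate-wasting hormone), Dkk1 (a Wnt inhibitor) and Ptprz1 (a receptor phosphatase) had no count in any library. Dmp1 (ENSMUSG00000029307.8), a matrix phosphoprotein of osteocytes, had 0, 0, 12 and 9 counts, which is 0, 0, 0.254 and 0.181 CPM. Tnfrsf11b (ENSMUSG00000063727.4), the gene of the RANKL decoy osteoprotegerin, had 0, 0, 4 and 4 counts. The values of Dmp1 and Tnfrsf11b lie at or under the limit of 12 counts. Both the early and the mature osteocyte list were written with earlier results of these data known. Their contrast is therefore a description of the lists and does not stage the cells. It also rests on where a gene was placed: Dmp1 was counted in the mature list, and the early list is complete without it.

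**Figure D1:**
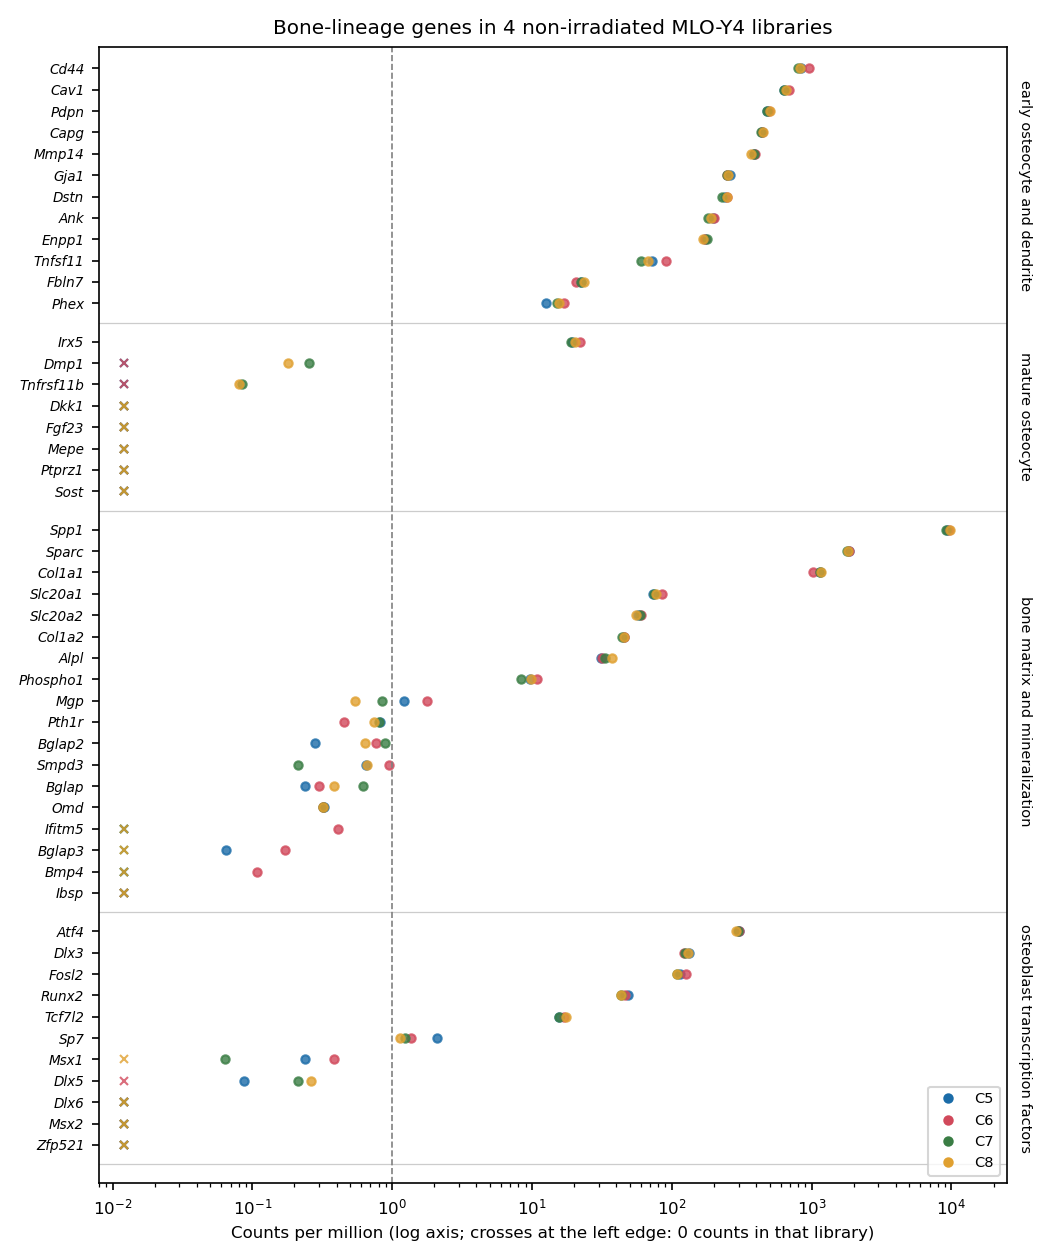
CPM of genes of 4 bone-lineage lists (rows) in each library (coloured points, log axis; crosses mark 0 counts and the dashed line 1 CPM). All 12 early osteocyte genes lie above 10 CPM in every library, while 7 of the 8 mature osteocyte genes lie under 1 CPM or at 0. The lists were written with earlier results of these data known.

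Of 12 transcription factors of the osteoblast lineage, 7 were expressed. Runx2 (ENSMUSG00000039153.18), the master regulator of the lineage, had 48.6, 46.2, 43.4 and 43.7 CPM. Sp7 (ENSMUSG00000060284.8), osterix, which acts after it, was barely above the line at 2.103, 1.37, 1.23 and 1.14 CPM, with C5 the highest. Higher levels were found for Atf4, a stress and amino acid factor needed for late osteoblast function (298 ± 5.35 CPM), for the homeobox gene Dlx3 (127 ± 5.11 CPM) and for the AP-1 member Fosl2 (115 ± 7.64 CPM). Tcf7l2, a partner of β-catenin, had 16.4 ± 0.935 CPM. Dlx5 and Msx1 averaged 0.140 CPM and 0.172 CPM, and Dlx6, Msx2 and Zfp521 were at 0.

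Genes of bone matrix and mineralization were uneven: 8 of 18 were expressed, 9 lay between and Ibsp, bone sialoprotein, was at 0. Spp1 and Sparc were among the most abundant mRNAs of the cell. Alpl (ENSMUSG00000028766.11), the phosphatase that clears pyrophosphate at mineralizing sites, was moderate at 31.2, 31.7, 33.2 and 37.6 CPM, with C8 the highest. The phosphate transporters Slc20a1 and Slc20a2 had 77.4 ± 5.54 CPM and 58.01 ± 2.34 CPM, and Phospho1, a phosphatase of matrix vesicles, had 9.68 ± 1.02 CPM. Bglap (ENSMUSG00000074483.3), an osteocalcin gene, had 0.238, 0.300, 0.614 and 0.381 CPM. Its neighbour copy Bglap2 had 0.282, 0.772, 0.890 and 0.642 CPM, so neither reached 1 CPM in any library. Reads of these near-identical copies may have been split between them in the counting. The inhibitor of calcification Mgp straddled the line, at 1.21, 1.78, 0.847 and 0.542 CPM. Pth1r (ENSMUSG00000032492.15), the parathyroid hormone receptor, lay between, at 0.824, 0.451, 0.805 and 0.742 CPM.

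Signals from bone cells to osteoclasts were led by Csf1 (ENSMUSG00000014599.11), the macrophage growth factor needed for osteoclast precursors, with 2243, 2374, 2227 and 2217 CPM; C6 was the highest. Of the 12 genes 8 were expressed. On the TPM scale Csf1 (1392 ± 67.3 TPM) was followed by the cytokine Il11 (195.5 ± 15.01 TPM), Tnfsf11 (84.0 ± 16.6 TPM), the guidance factor Sema3a (20.8 ± 1.45 TPM), Lif (8.55 ± 1.17 TPM) and Il34 (5.87 ± 0.947 TPM), the second ligand of the CSF1 receptor. Csf1 exceeded Il34 on that scale in every library, with a ratio of 242, 297, 188 and 242.5. Cxcl12 and Wnt5a were at 0. Among 12 receptors and co-receptors for bone hormones, 6 were expressed, with the glucocorticoid receptor Nr3c1 (174 ± 9.05 CPM) and the vitamin D receptor Vdr (70.4 ± 1.36 CPM) highest in CPM. The oestrogen receptor Esr1 had 16.1 ± 0.799 CPM, and Calcr, Pth2r and Ramp1 were at 0.

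The collagen family was expressed in part: 22 of 44 chains reached 1 CPM, 13 lay between and 9 were at 0. On the TPM scale the order was Col6a1 (1577 ± 21.1 TPM), Col6a2 (906 ± 12.1 TPM), the fibrillar chain Col3a1 (576 ± 17.1 TPM) and Col6a3 (515.5 ± 44.4 TPM); the Col6 chains form the beaded collagen VI. Col1a1 followed with 484.5 ± 20.9 TPM. The range of Col6a3 overlapped those of Col3a1 and Col1a1, so its place among these 3 is not settled. Col3a1 stood above Col1a1 in every library. The partner of Col1a1 in the collagen I trimer was far lower. Col1a2 (ENSMUSG00000029661.17), which normally supplies 1 chain for every pair of α1 chains, had 45.5, 45.8, 44.2 and 45.2 CPM. Col1a1 exceeded Col1a2 in each library, by 22.6, 20.2, 23.5 and 23.2 times in TPM. The size of this ratio, though not its direction, depends on the length used: it was 118 ± 7.91 with the median transcript length and 47.0 ± 3.15 with merged exons. Col6a1 over Col6a2, a pair from 1 trimer, gave 1.74 ± 0.0202.

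Other matrix glycoproteins were broadly expressed, 24 of 28 genes. Besides Spp1, Fn1 and Sparc, the highest in TPM were Lox, the copper enzyme that starts collagen cross-links (1440.5 ± 24.7 TPM), the fibulin Fbln2 (843 ± 19.9 TPM) and the thrombospondin Thbs1 (537 ± 56.96 TPM). Lox had 2643, 2659, 2623 and 2723 CPM. Ccn3, Fbn2 and Mfap5 were at 0, and Postn, periostin, had 5 counts in C5 and 0 in the other 3 libraries. Of 22 proteoglycan and hyaluronan genes 15 were expressed. Bgn, biglycan (1730.5 ± 17.1 TPM), and Sdc1, syndecan 1 (1626 ± 64.03 TPM), led, followed by Sdc4 (407 ± 12.4 TPM), Cd44, Prg4, the lubricin gene (360.2 ± 11.8 TPM), and Gpc1 (302 ± 5.12 TPM). Acan, the cartilage proteoglycan, Gpc3 and Gpc6 were at 0.

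Among enzymes that cut matrix, Mmp2 and Mmp14 stood above the rest. Of 22 matrix metalloproteinases 8 were expressed, with a median of 39.2 TPM, led by the gelatinase Mmp2 (746 ± 11.04 TPM) and its activator Mmp14, then Mmp23 (56.2 ± 2.65 TPM) and Mmp19 (39.3 ± 2.02 TPM); 10 were at 0. Mmp13, the collagenase of hypertrophic cartilage and bone, averaged 3.12 CPM. The inhibitors Timp1 (1199.8 ± 59.7 TPM) and Timp2 (827.5 ± 37.7 TPM) were expressed, while Timp3 averaged 0.132 CPM. Of 12 genes of a serpin and plasminogen list 9 were expressed. Among them were the plasminogen activators Plau (309 ± 39.02 TPM) and Plat (104 ± 2.06 TPM) and the receptor Plaur (215 ± 19.4 TPM). Thbd, thrombomodulin (369 ± 29.2 TPM), was expressed as well. Serpinb6a was the highest of that list (550.0 ± 14.3 TPM), and Plg and Tfpi2 were at 0. Of 27 integrin chains, receptors for matrix, 16 were expressed (59.3%), against 50.4% of all protein-coding genes. The leading chains were Itgb1 (479 ± 10.3 TPM), Itgb5 (378 ± 3.57 TPM), Itga5 (257 ± 13.1 TPM), which with Itgb1 forms the fibronectin receptor, and Itgb7 (166 ± 3.96 TPM).

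The interferon response list was expressed almost completely, and the labels name no interferon treatment. It holds interferon-stimulated genes along with receptor chains, signal factors and ligands, so its share is not that of stimulated genes alone. Of 37 genes 35 were expressed, with a median of 135 TPM. Isg15 (ENSMUSG00000035692.8), a ubiquitin-like modifier, had 469, 456, 487 and 483 CPM. Bst2 (ENSMUSG00000046718.9), tetherin, which holds enveloped viruses on the cell, had 439.6, 435, 443 and 446 CPM. Ifit1 (ENSMUSG00000034459.9), which binds foreign RNA 5′ ends, had 627, 671, 641 and 662 CPM. Ifit3 (ENSMUSG00000074896.4), its partner, had 347, 363, 375 and 356.5 CPM. These levels differed little between libraries: the median CV of the 35 genes was 3.01%, against 3.54% for all expressed genes of 100 to 1000 CPM. On the TPM scale Isg15 (1606.5 ± 25.9 TPM) and Bst2 (1427.5 ± 8.48 TPM) were followed by B2m, the light chain of MHC class I (909.8 ± 24.8 TPM), Ifit1 (628 ± 23.6 TPM), H2-D1 (548 ± 6.04 TPM) and Oasl2 (539 ± 10.7 TPM). Ifit3 followed with 530.0 ± 19.1 TPM, and the ranges of H2-D1, Oasl2 and Ifit3 overlapped. Factors that carry the signal were expressed as well, with Stat2 at 363 ± 12.4 CPM, Irf9 at 130.5 ± 3.66 CPM and Irf7 at 226.5 ± 4.94 CPM. So were the receptor chains Ifnar1 (103 ± 2.61 CPM) and Ifnar2 (70.3 ± 2.13 CPM). The 2 ligand genes of the list were not: Ifnb1 (ENSMUSG00000048806.5) had 12, 7, 4 and 0 counts and Ifng was at 0.

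Many of these genes are known to be switched on through the interferon-stimulated response element. Its core was searched here as GAAANNGAAA, or TTTCNNTTTC on the other strand, overlapping matches included. The 130 bases before the annotated start of the 4 genes given by library are shown 5′ to 3′ on each gene's strand (RefSeq, GRCm38.p6, which is not the build of the count table), with every match in capitals.
Isg15, chr4:156200819-156200948, minus strand: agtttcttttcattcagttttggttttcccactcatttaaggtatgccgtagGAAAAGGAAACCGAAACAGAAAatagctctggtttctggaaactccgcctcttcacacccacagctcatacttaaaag
Ifit1, chr19:34640759-34640888, plus strand: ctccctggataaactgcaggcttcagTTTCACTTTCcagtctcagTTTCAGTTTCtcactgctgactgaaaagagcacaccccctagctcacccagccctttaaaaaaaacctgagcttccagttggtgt
Ifit3, chr19:34583399-34583528, plus strand: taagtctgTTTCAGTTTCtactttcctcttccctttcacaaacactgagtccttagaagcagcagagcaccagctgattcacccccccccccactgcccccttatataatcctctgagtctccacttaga
Bst2, chr8:71537473-71537602, minus strand: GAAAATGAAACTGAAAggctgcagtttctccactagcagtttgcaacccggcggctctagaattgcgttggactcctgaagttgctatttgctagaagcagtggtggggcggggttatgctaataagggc

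Counted back from the start, Isg15 has 3 overlapping matches that begin at -78, -72 and -66. Ifit1 has 2 separate matches on the other strand, at -104 and -85. Ifit3 has 1, at -122, and Bst2 has 2 overlapping ones, at -130 and -124. In the 250 bases before the start, 13 of the 31 interferon genes with an annotated promoter held a match (41.9%). Among all 16495 protein-coding genes with such a promoter, 581 did (3.52%). For a gene with several starts, a match before any of them counted. Of the 31 genes 29 were expressed, among them all 13 with a match. Among highly expressed members without a match in the window were Oasl2 (656 CPM), H2-D1 (449 CPM) and Ifi44 (442 CPM). The list includes genes picked because they are known to respond to interferon, so the share is a description of that list. A match is not a shown binding site.

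Genes by which osteocytes sense load were expressed in 14 of 20 cases. Piezo1, a stretch-gated cation channel, had 404, 433, 394 and 400.4 CPM, whereas its relative Piezo2 was at 0. Trpv4 (ENSMUSG00000014158.13), a channel opened by swelling, had 131, 126, 129.9 and 129.5 CPM. Pkd2, a subunit of the ciliary polycystin channel (113 ± 5.54 TPM), the growth regulators Yap1 (76.5 ± 3.24 TPM) and Wwtr1 (73.0 ± 3.96 TPM), and the focal adhesion kinase Ptk2 (54.2 ± 2.34 TPM) completed the 6 highest in TPM. Of the purine receptors that respond to released ATP, 4 of 15 were expressed, led by P2rx4 (21.2 ± 0.773 TPM) and P2rx7 (5.57 ± 0.586 TPM); P2ry1 was at 0. Connexins were led by Gja1. Of 23 connexin and pannexin genes 8 were expressed, 4 lay between and 11 were at 0. Gja1 had 166 ± 3.77 TPM, Gja4 24.1 ± 4.16 TPM and Panx1, a channel for ATP release, 9.66 ± 1.02 TPM.

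Prostaglandin E2 is a major product of loaded osteocytes, and 11 of 13 genes of its synthesis, export and reception were expressed. Ptgs1 (ENSMUSG00000047250.14), the constitutive cyclooxygenase, had 385, 397, 372 and 379 CPM. Ptgs2 (ENSMUSG00000032487.9), the inducible form, had 169.8, 221, 153 and 168 CPM, with C6 the highest and a CV of 16.5%. In TPM Ptgs1 stood above Ptgs2 in every library, by 3.52, 2.79, 3.77 and 3.50 times. The terminal synthases Ptges3 (286 ± 18.6 TPM) and Ptges (58.8 ± 3.27 TPM), the transporter Slco2a1 (55.1 ± 1.26 TPM) and the phospholipase Pla2g4a (48.8 ± 2.44 TPM) were expressed, and Hpgd, which degrades the product, was at 0. Of its receptors Ptger4 had 25.3 ± 1.52 CPM, Ptger1 18.3 ± 3.01 CPM and Ptger3 7.48 ± 1.06 CPM, and Ptger2 had counts in 1 library only.

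Wnt signalling was represented by its receptors and transducers rather than by its ligands. Of 22 pathway genes 14 were expressed. Highest in TPM were Ctnnb1, β-catenin (452 ± 7.94 TPM), the atypical receptor Ryk (163 ± 3.64 TPM), Dkk3 (155.5 ± 7.05 TPM), the R-spondin receptor Lgr4 (109 ± 5.89 TPM), Ror2 (59.5 ± 4.91 TPM) and Kremen1 (59.4 ± 2.12 TPM). The co-receptors Lrp6 and Lrp5 had 106.5 ± 9.72 CPM and 32.4 ± 2.23 CPM, and Lrp4, which presents sclerostin, had 3.24 ± 0.636 CPM. Dkk1, Lef1, Rspo3 and Sfrp1 were at 0. Axin2 (ENSMUSG00000000142.16), a feedback target of β-catenin, had 0.0867, 0.0858, 0 and 0.161 CPM. Of 19 Wnt ligands 3 were expressed, and the highest, Wnt9a, had 6.81, 5.15, 6.76 and 6.84 CPM, with C6 below the others. Of 10 frizzled receptors 6 were expressed, led by Fzd2 (24.3 ± 1.31 TPM).

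The TGF-β and BMP pathway was expressed in 25 of 32 genes. Inhba, the activin A subunit, had 580.3, 704, 488.5 and 532.5 CPM, and the BMP antagonist Grem1 had 279.6, 334, 258 and 271 CPM; C6 was the highest for both. In TPM the order was Inhba (232 ± 41.1 TPM), the BMP target Id3 (182 ± 21.4 TPM), Grem1 (177 ± 23.5 TPM), Tgfb1 (163 ± 7.36 TPM), Smad3 (110.4 ± 4.62 TPM) and the co-receptor Tgfbr3 (96.9 ± 1.83 TPM), and the ranges of Id3, Grem1 and Tgfb1 overlapped. Bmp2, Bmp7 and Nog were at 0, and of 21 BMP and GDF ligands 3 were expressed: the procollagen protease Bmp1 (63.2 ± 2.79 TPM), Gdf15 (36.05 ± 3.87 TPM) and Gdf5 (4.19 ± 0.580 TPM). Of 22 FGF ligands 2 were expressed, Fgf7 (93.04 ± 5.96 CPM) and Fgf2 (29.02 ± 5.56 CPM). In the IGF system 6 of 12 were expressed, with the binding proteins Igfbp4 (631 ± 25.2 CPM), Igfbp7 (107 ± 6.302 CPM) and Igfbp6 (90.4 ± 8.86 CPM) above the receptors Igf2r and Igf1r in TPM; the ligand genes Igf1 and Igf2 each had counts in 1 library. Of 24 growth factor receptors 15 were expressed, led by Axl (496 ± 14.4 TPM), Pdgfrb (246 ± 13.2 TPM) and the collagen receptor Ddr2 (161 ± 7.27 TPM). Erbb4, Fgfr2, Fgfr4, Kit and Ntrk2 were at 0.

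Unlike osteocytes in bone, which do not divide, these cultures expressed all 27 genes of the proliferation list. Cdkn2a (ENSMUSG00000044303.7), the gene of the inhibitors p16Ink4a and p19Arf, had 391, 384, 409 and 423 CPM and was the highest of the list in TPM (1151 ± 32.4 TPM). The DNA precursor enzyme Rrm2 (827 ± 17.2 TPM), the replication clamp Pcna (503 ± 6.39 TPM), the inhibitor Cdkn1a (494 ± 13.9 TPM), the topoisomerase Top2a (301 ± 11.4 TPM) and the cyclin Ccna2 (254 ± 13.7 TPM) came next. Mki67 (ENSMUSG00000031004.9), the gene of the division marker Ki-67, had 375, 380.5, 363 and 356 CPM. Large T antigen is known to bind p53 and the Rb protein; their genes Trp53 and Rb1 had 146 ± 4.69 CPM and 30.2 ± 3.19 CPM. Tert, the catalytic telomerase subunit, had 4.31 ± 0.870 CPM, and Mycn was at 0.

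Metabolic and stress lists were near complete. All 20 cholesterol synthesis genes were expressed, led in TPM by Fdps (283 ± 24.3 TPM) and Idi1 (226 ± 6.27 TPM). All 22 chaperone genes were, led by Hsp90ab1 (1622 ± 38.9 TPM), the collagen prolyl hydroxylase subunit P4hb (1516 ± 40.1 TPM) and Calr (1417 ± 26.6 TPM). Reads of some chaperone genes may have been split with near-identical pseudogenes, so this order is uncertain. The 2 near-identical heat shock genes Hspa1a (5.57 ± 0.197 CPM) and Hspa1b (18.4 ± 2.39 CPM) were low. Of 28 antioxidant and iron genes 24 were expressed. Ftl1 exceeded the ferritin heavy chain Fth1 5.07 ± 0.0800 times in TPM, and its level was lowest in C6, at 4063.5, 3680.0, 4401 and 4369 CPM. Slc7a11, the cystine importer, lay between with 0.519 ± 0.218 CPM, and Mt3 was at 0. Of 23 glycolysis genes 21 were expressed, led by Pkm (3472 ± 33.2 TPM), Eno1 (1942.5 ± 41.4 TPM) and Ldha (1775 ± 33.4 TPM).

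The glycolytic enzyme gene Gapdh (ENSMUSG00000057666.19) was low for a gene that all cells use, at 89.6, 80.3, 74.1 and 80.9 CPM. Its transcripts shared at least 100 stretches of 31 bases with 130 other features of the annotation, 106 of which had counts, and these 106 summed to 3381 to 3598 CPM per library. The largest, the processed pseudogene Gm13394, had 1187 ± 33.6 CPM and shared 96.8% of its 31-base stretches with Gapdh. The value listed for Gapdh is therefore uncertain, as reads of near-identical copies may have been split by the alignment or the counting. Similar pairs were found for the mitochondrial genome. Gm28661 had 849 ± 62.4 CPM against 851 ± 62.6 CPM for mt-Co2, and Gm10925 1154 ± 44.04 CPM against 1131 ± 41.9 CPM for mt-Atp6; both pseudogenes were contained in their partners by this measure. Of 643 expressed pseudogenes 541 (84.1%) shared at least 50% of their stretches with a single protein-coding gene, 181 shared at least 90% and 7 shared none. Another usually abundant gene, the actin-binding peptide gene Tmsb4x, had only 9.79 ± 1.12 CPM, and no feature shared 100 stretches with it. That cutoff could miss copies of so short a coding sequence, so copies are not excluded. Gm3788, a pseudogene closest to the paralogue Tmsb10, has only 106 stretches in all. Tmsb10 had 413.5 ± 37.6 CPM.

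Hox genes, which record position along the body and the limb, were expressed by cluster. Of 39 genes 19 (48.7%) were expressed, near the 50.4% of all protein-coding genes, 10 lay between and 10 were at 0. The highest in TPM were Hoxa11 (76.3 ± 6.03 TPM), Hoxa10 (58.4 ± 2.31 TPM), Hoxc10 (47.6 ± 1.17 TPM) and Hoxd8 (38.3 ± 2.57 TPM). Hoxa11, needed for the forearm and lower leg segments of the limb, had 74.4, 67.3, 62.1 and 68.3 CPM. No gene of the Hoxb cluster was expressed: Hoxb6, the highest, averaged 0.189 CPM, and Hoxb1, Hoxb2, Hoxb3, Hoxb7, Hoxb8 and Hoxb13 were at 0. At the distal end of the other clusters Hoxa13 had 2.04 ± 0.650 CPM, whereas Hoxd12 and Hoxd13 were at 0.

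**Figure D2:**
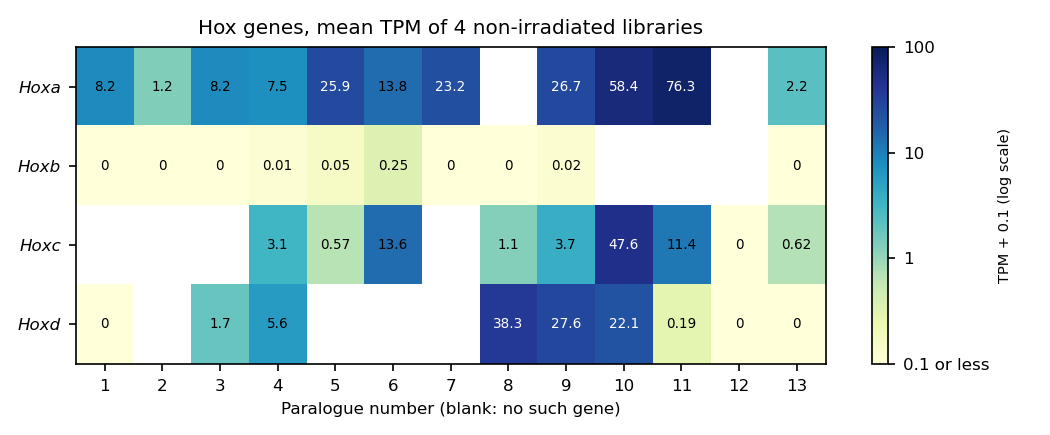
Mean TPM of the 39 Hox genes over the 4 libraries, with clusters in rows and paralogue numbers in columns (colour on a log scale of TPM + 0.1; numbers are the TPM means). The dark cells lie in the Hoxa, Hoxc and Hoxd rows, from 76.3 TPM for Hoxa11, and the highest Hoxb value is 0.247 TPM.

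Markers of 11 other cell types were mostly missing. In bulk RNA such as this, fewer cells of a type and less RNA per cell cannot be told apart. No gene of the lymphocyte (10 genes), erythroid (8 genes) or pluripotency and germ line (6 genes) lists was expressed. Their summed levels stayed within 0 to 0.0847 CPM, 0.181 to 0.494 CPM and 0.0867 to 0.494 CPM per library. The endothelial list had 1 of 10 expressed, Erg (1.30 ± 0.217 CPM), with Cdh5, Cldn5, Emcn and Kdr at 0 and a summed 1.36 to 3.08 CPM. Skeletal muscle had 1 of 9, Acta1 (3.33 ± 0.892 CPM), neural and glial 1 of 9, Tubb3 (9.16 ± 0.676 CPM), and tendon 1 of 5, Scx (1.66 ± 0.398 CPM). The muscle regulators Myod1 and Pax7, the glial regulator Sox10 and the tendon gene Tnmd were at 0. The epithelial list had 2 of 12, Krt19 (10.3 ± 0.951 CPM) and Krt13 (8.098 ± 0.894 CPM), with Epcam, Cdh1, Krt8, Krt18, Krt5 and Grhl2 at 0.

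Lists of cell types close to bone were less empty. Of 15 chondrocyte genes 5 were expressed, foremost the transcription factors Sox9 at 141, 137, 141 and 138 CPM and Sox5 (121 ± 6.26 CPM). The other 3 expressed members were matrix genes, with the cartilage collagen Col2a1 at 2.82 ± 0.452 CPM, Col11a2 at 4.66 ± 0.910 CPM and Hapln1 at 1.89 ± 0.550 CPM. Acan, Col9a1 and the transcription factor gene Sox6 were at 0. Of 9 adipocyte genes 2 were expressed, the regulators Pparg (19.8 ± 0.993 CPM) and Cebpa (16.7 ± 2.37 CPM), whereas Adipoq, Cfd, Cidec, Lep and Plin1 were at 0. Of 17 osteoclast and macrophage genes 4 were expressed. Ctsk, the collagen-cutting cathepsin K, had 60.98, 69.2, 69.4 and 65.2 CPM. Cd14 had 14.3 ± 1.18 CPM, Csf1r 14.3 ± 1.13 CPM and Cd68 4.48 ± 0.452 CPM, and the list summed to 93.7 to 106 CPM. The pan-leukocyte gene Ptprc and Tyrobp, Adgre1, Itgam, C1qa, Acp5, Dcstamp and Calcr were at 0. The mesenchymal and fibroblast list had 15 of 18 expressed. S100a6 (5322 ± 190.2 TPM), Vim (4298 ± 40.6 TPM), Lgals1 (3345 ± 105 TPM), Fn1 and S100a4 (3049 ± 54.3 TPM) were among the 20 highest of all genes in TPM, while Lum averaged 0.106 CPM, Thy1 0.148 CPM and the contractile actin Acta2 0.0351 CPM.

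**Figure D3:**
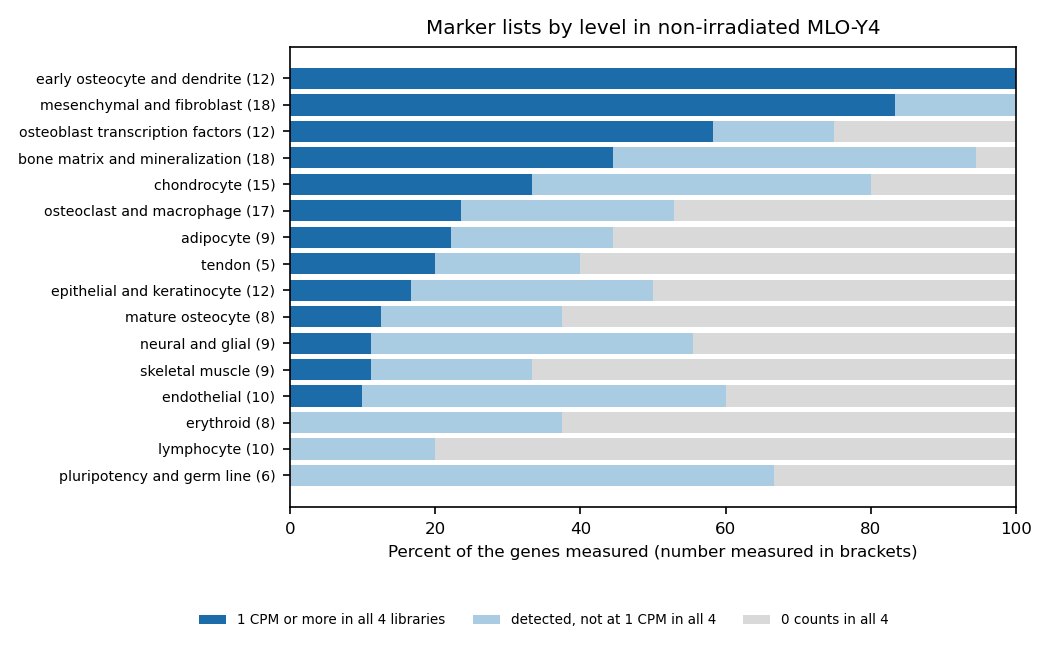
Share of each marker list at 1 CPM or more in all 4 libraries (dark blue), detected at a lower level (light blue) and at 0 counts (grey), for bone lists and the 11 lists of other cell types. The early osteocyte list is complete (12 of 12), whereas the mature osteocyte list (1 of 8) ranks below the epithelial list (2 of 12). The lists were written with earlier results of these data known.

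Xist and the listed Y-linked transcripts were nearly missing. Xist, the RNA that silences an X chromosome, had counts in C8 only (0.0251 CPM on average), and the Y-linked Ddx3y, Eif2s3y, Kdm5d and Uty were at 0. Of 175 protein-coding genes on the Y chromosome 1 was expressed and 172 were at 0, and of 929 on the X chromosome 332 (35.7%) were expressed, against 40.6% to 60.4% on the autosomes.

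Families of olfactory and vomeronasal receptors, taste receptors, hair proteins and defensins were mostly at 0. Of 1134 olfactory receptors 1077 (94.97%) were at 0 and 3 were expressed: Olfr810 (35.5 ± 2.77 CPM), Olfr809 (15.6 ± 0.389 CPM) and Olfr56 (2.08 ± 0.222 CPM). Of 328 vomeronasal receptors 311 were at 0 and 2 expressed. None of the 57 keratin-associated proteins, 42 beta-defensins, 38 taste receptors or 5 caseins was expressed. Of 53 keratins 4 were expressed, the highest in TPM being Krt19 (16.7 ± 1.47 TPM), and of 23 cadherins 3, with Cdh13 (54.02 ± 3.01 CPM) first, while Cdh2 averaged 0.0201 CPM and Cdh11, the osteoblast cadherin, 0.243 CPM. Of 11 aquaporins Aqp1 alone was expressed, at 108 ± 5.75 CPM, and of 40 voltage-gated potassium channels 4 were. At the other end stood 13 of 13 protein genes of the mitochondrial genome, 77 of 80 cytosolic ribosomal proteins and 10 of 11 annexins, led by Anxa2 (1430.3 ± 19.6 TPM). Of 371 solute carriers 172 (46.4%) were expressed, with the nucleoside transporter Slc29a1 first (713 ± 25.1 TPM).

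**Figure D4:**
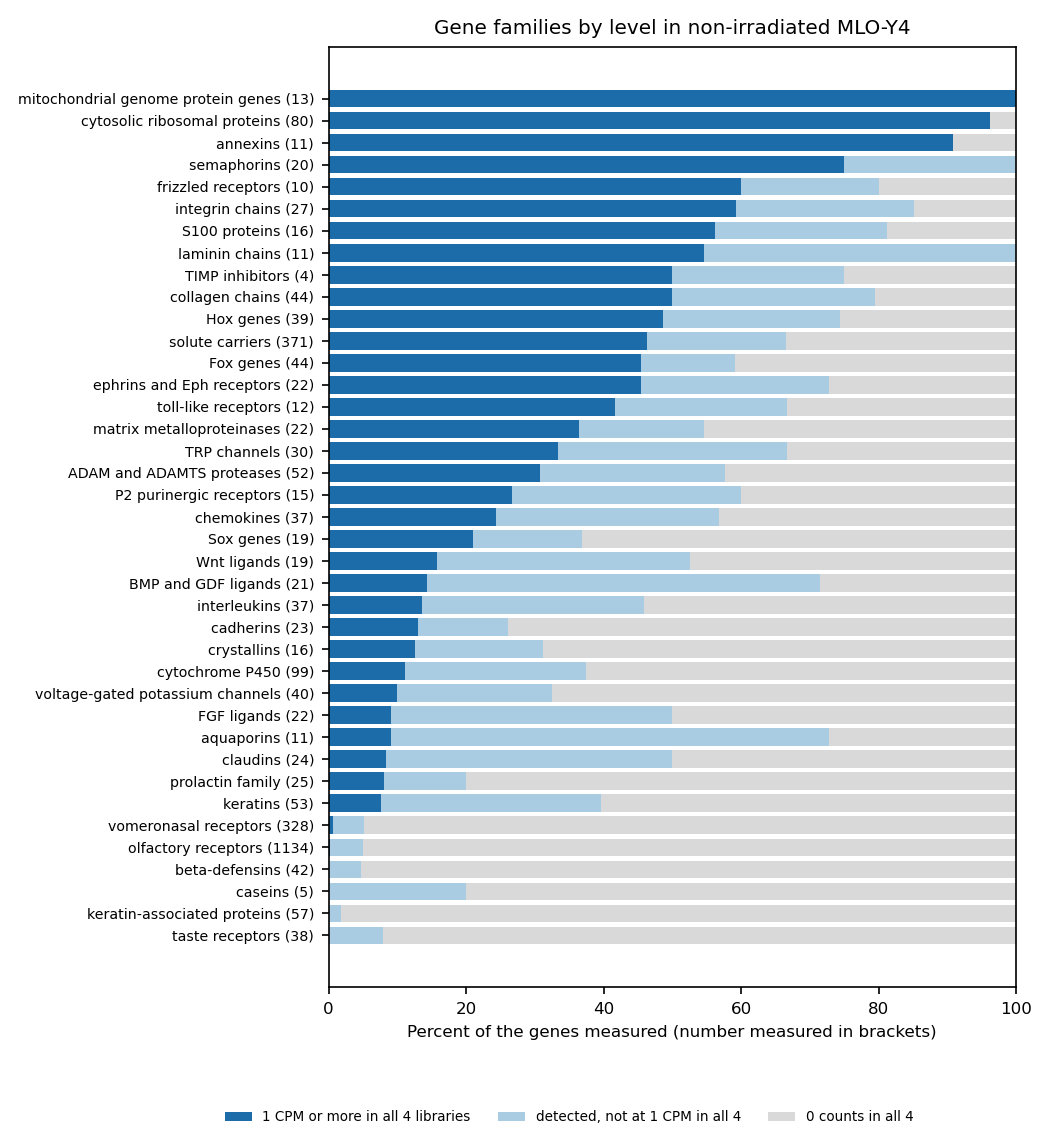
Share of the members of 39 gene families at 1 CPM or more in all 4 libraries (dark blue), detected at a lower level (light blue) and at 0 counts (grey), with the number of members in brackets. The families run from the mitochondrial protein genes (all 13 expressed) to those with no expressed member, and 94.97% of the olfactory receptors are at 0.

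Promoters were read for 16495 protein-coding genes with a RefSeq promoter (GRCm38.p6). Where a gene had several promoters, the highest CpG ratio was taken and a TATAAA match in any of them counted. Genes with more annotated promoters thus had more chances to pass. The ratio of observed to predicted CpG in the 250 bases before the start exceeded 0.6, a usual mark of a CpG island, in 14.7% of 5305 genes at 0 counts and in 29.7% of 2424 genes between. Among expressed genes the share was 56.3% below 10 CPM, 78.9% from 10 to 100 CPM, 81.6% from 100 to 1000 CPM and 61.8% of 55 genes at 1000 CPM or more. The word TATAAA, on the gene's strand in the last 50 bases before the start, was found in 7.01% of genes at 0, in 1.08% of genes from 10 to 100 CPM and in 9.09% (5 of 55) of the most abundant, against 3.69% of all. Genes differ in many ways besides level, and these shares are a description.

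The 4 libraries resembled each other closely. Across the 12089 expressed features, pairs of libraries had Pearson correlations of log2 CPM between 0.9930 and 0.9942; genes are not independent replicates, so no p is given. The median fold difference of a gene between 2 libraries was 1.06 (C7 and C8) to 1.08 (C6 and C8), and 52 to 76 features differed by over 2-fold in a pair. The median CV was 6.26%. It fell with level, from 15.4% below 10 CPM to 6.01% from 10 to 100 CPM, 3.54% from 100 to 1000 CPM and 2.62% above. Of 856 features with a CV over 20%, 765 had a mean below 10 CPM.

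**Figure D5:**
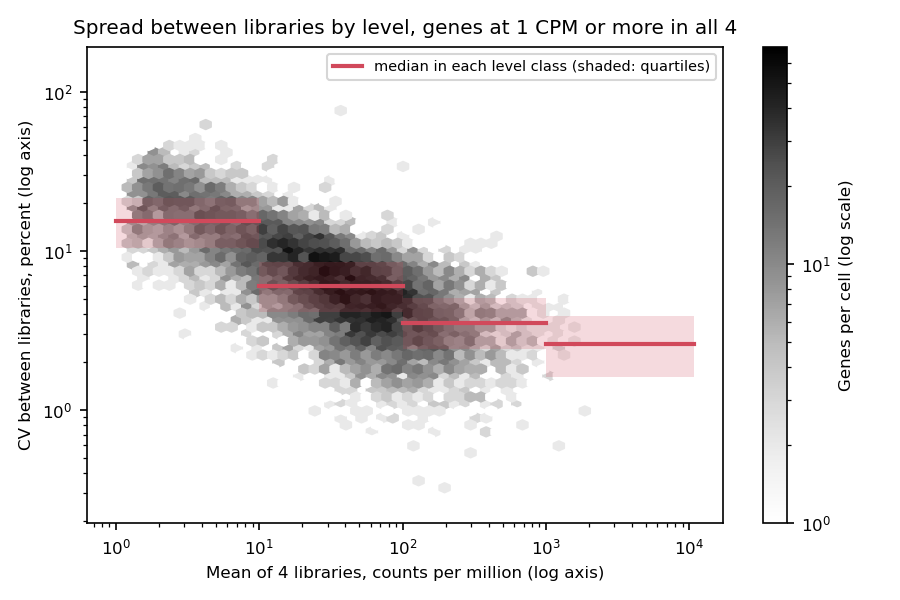
CV between the 4 libraries against mean CPM for the 12089 features at 1 CPM or more in all 4 (both axes log; grey shade is the number of features, red lines are medians and bands quartiles of 4 level classes). The median falls from 15.4% in the lowest class to 2.62% in the highest.

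Library C6 stood slightly apart. Its median absolute deviation from the mean of the other 3, in log2 CPM, was 0.09, against 0.07 to 0.08 in the others, and it held the lowest value for 3747 features and the highest for 3314. Deviations moved with transcript length: Spearman's rho across genes was 0.312 in C6 and -0.285 in C8, and 0.0680 in C5 and -0.146 in C7. Among lists with at least 4 expressed genes the largest median log2 deviation was -0.18, for the osteoclast signals in C7. Next came 0.17 for the serpin and plasminogen list in C6 and -0.17 for the chondrocyte genes in C8. Cholesterol synthesis in C6 followed with -0.16. The part of transcript length in these list values was not tested. With C6 left out, the median CV of the remaining 3 libraries was 5.29%.

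A few genes varied far more than others of their level. Among 9140 features with a mean of at least 10 CPM and a symbol other than a predicted-gene name, Ppp1r26 had 13.8, 0.665, 16.03 and 15.1 CPM, with C6 nearly devoid of it. Rps27rt, a retrotransposed copy of a ribosomal protein gene, had 22.4, 121, 25.99 and 68.4 CPM, and its mean was 38.94 CPM without C6. Phc3, a Polycomb gene, had 26.3, 30.1, 82.6 and 81.3 CPM, so that C5 and C6 fell apart from C7 and C8. Hnrnpa3 was high in C8, at 30.6, 39.6, 43.97 and 122 CPM, and averaged 38.05 CPM without that library. Its level is uncertain, as that of Gapdh is, because reads may have been split among near-identical pseudogenes. Among these, Gm5641 had 171 ± 4.33 CPM and shared 100% of its 31-base stretches with Hnrnpa3, and Gm11847 had 121.5 ± 5.30 CPM and shared 96.4%. Psd3 was low in C8, at 31.2, 34.8, 33.99 and 9.47 CPM. Pagr1a, Lrch4, Xpo4, Nnt and Fdx1l were the other 5 of the 10 most variable, with CVs of 37.3% to 56.8%. Among the 5 steadiest were Stk38, Cdkn2aipnl, Slc12a4 and Hnrnpc. Stk38, a kinase gene, had 79.6, 79.3, 79.2 and 79.6 CPM.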

How the data were processed

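The authors deposited 1 table of estimated counts per gene, in whole numbers and without normalization, from RNA-seq of poly(A)-enriched RNA. The submitters' processing notes name genome build GRCm39 and DESeq2 1.32.0, StringTie 2.1.7, HISAT2 2.2.1, FastQC 0.11.9 and Trimmomatic 0.39. Order, settings, annotation, read length and strand use were not given in the sources used here, so overlapping and antisense genes are uncertain. Values of 1, 2, 3, 4 and 5 occurred 3257, 2006, 1952, 3071 and 1224 times, and for 4911 genes of 5 to 100 counts the variance was typically 4.21 times the mean.

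The 4 columns of the non-irradiated group were used and 4 were not. Names, biotypes, chromosomes and transcript lengths came from GENCODE release M21 (GRCm38), which names 52083 identifiers holding 99.6% of counts. CPM used column totals; TPM used the longest transcript. A symbol shared by 2 identifiers was read from the protein-coding one, then from the larger. No test between groups was run, since 1 group is described; a library far from the other 3 was found by Dixon's test (95% level). Alternatives were TMM (edgeR 4.0.16, R 4.3.3), DESeq2 1.42.0 size factors, other thresholds and lengths, and leaving out each library. The CV was checked on simulated counts of genes averaging at least 100 CPM. Genes of lower level were not covered.

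The members, 40 gene lists and 39 families were chosen with earlier results of these data known. The rule named the markers and 11 bone genes, the 20 highest by CPM and by TPM, up to 6 members by TPM and all at 0 of each list, up to 4 of each family, and the 10 most and 5 least variable genes (SD of log2 CPM with 0.5 added, mean of at least 10 CPM). Genes named besides these were chosen after their values were seen: Acta2, Ank, Axin2, Bglap2, Cdh2, Cdh11, Col1a2, Dlx5, Enpp1, Epas1, Gapdh, Gm13394, H19, Hoxa13, the Hoxb and distal Hoxd genes, Hspa1a, Hspa1b, Ifi44, Ifit3, Ifnar1, Ifnar2, Ifnb1, Igf1, Igf2, Irf7, Irf9, Lrp4, Lrp5, Lrp6, Lum, Mgp, Mki67, Mmp13, Msx1, Neat1, Phospho1, Postn, Ptger1 to Ptger4, Pth1r, Slc7a11, Stat2, Thy1 and Tmsb4x. Some genes that the rule names are not reported here.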

Additional observations from a re-analysis of the deposited data

Results flagged for a closer look

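In 18 of 302 expressed genes named by the rule (5.96%), 1 library lay far from the other 3 relative to the range of the 4 (Dixon's test at the 95% level). Chance alone gives about 1 in 20, and over all 12089 expressed features the share was 5.21% (630 features). Of the 18, 10 concerned C8, 4 C6, 3 C7 and 1 C5. Over the 630 features the order differed, with 220 in C6, 176 in C8, 122 in C7 and 112 in C5.

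C8 was the highest library for Anxa5 (651 CPM), Hnrnpa3 (122 CPM), mt-Atp6 (1193 CPM), Nr1d1 (37.5 CPM), Slc25a5 (234 CPM) and Txn1 (272 CPM). It was the lowest for Hapln1 (1.06 CPM), Kremen1 (108.5 CPM), Psd3 (9.47 CPM) and Ptk2 (94.5 CPM). C6 was the highest for Csf1 (2374 CPM) and the lowest for Cdh13 (49.5 CPM), Srebf2 (238 CPM) and Wnt9a (5.15 CPM). C7 was the lowest for Cldn12 (14.5 CPM), Ldha (1244 CPM) and Vdr (68.4 CPM), and C5 the lowest for Bhlhe40 (112 CPM). The distance could be small where the other 3 libraries lay close together: Vdr had 71.1, 71.2 and 70.9 CPM in C5, C6 and C8. Hnrnpa3 and Psd3 were also among the 10 most variable genes, with 30.6, 39.6, 43.97 and 122 CPM and 31.2, 34.8, 33.99 and 9.47 CPM. For Hnrnpa3, reads may have been split among its near-identical pseudogenes, so its level is uncertain.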

How the results depend on the processing

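The 12089 features at 1 CPM became 12830 at 0.5 CPM, 10362 at 5 CPM and 16203 at 1 count, and 12149 to 12173 when a library was left out. Features at 0 rose from 32381 to 33151 to 33228 with a library left out, and were 34246 with totals of at most 3 counts and 37778 with at most 12. The median CV moved from 6.26% to 5.29% for means of at least 10 CPM and to 8.085% with no filter, and ranged from 5.29% (without C6) to 6.22% over 3 libraries. The share of the 100 most abundant features was 17.17% to 17.21% with a library left out and 16.7% without the mitochondrial genome. CPM of the 492 named genes, 362 of them with counts, moved by at most 1 SD under TMM (factors 0.995 to 1.005) and DESeq2 size factors. With 1 library left out, the mean CPM of 2 of 302 expressed named genes moved by over 1.5-fold, Hnrnpa3 to 38.05 without C8 and Rps27rt to 38.94 without C6, and that of 28 of 60 genes detected at lower levels did. Of the 362 with counts, TPM moved by over 1 SD for 307 with median transcript lengths and for 259 with merged exons, which changes orders between genes. Of the list and family counts, 2 moved by over 1.5 times at 0.5 CPM and 14 at 5 CPM. No paired analysis was possible because 1 group is described and the column numbers could not be tied to samples. Depth limits what can be said of genes under about 1 CPM.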

Other observations

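Gene groups outside the bone and matrix lists differed in the share expressed, which was 50.4% for all protein-coding genes. Of 18 circadian clock genes 15 were, with Clock (163 ± 13.9 CPM) and Bhlhe40 (121 ± 5.98 CPM) highest in CPM, and Hlf and Npas2 at 0. In oxygen sensing 10 of 16 were expressed, among them the hypoxia factor Hif1a (441 ± 25.7 CPM) and its growth factor target Vegfa (151 ± 10.5 CPM), while Epas1, which encodes the related HIF-2α, averaged 0.135 CPM and Egln3 and Vegfc were at 0. Of 12 toll-like receptors 5 were expressed (41.7%), led by Tlr3, a sensor of double-stranded RNA (44.2 ± 1.22 CPM), and Tlr4 (16.2 ± 0.0955 CPM). Of 37 chemokines 9 were expressed (24.3%), with Cxcl3 (96.2 ± 12.04 CPM), Ccl9 (40.5 ± 1.78 CPM) and Ccl5 (13.6, 13.8, 14.2 and 14.1 CPM) among the highest in TPM.

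Of 20 semaphorins 15 were expressed (75%), led by Sema7a (467 ± 17.7 CPM), a membrane-anchored guidance molecule. The prolactin family, known from placenta, had 20 of 25 genes at 0, yet Prl2c3 (67.02, 68.7, 69.2 and 72.6 CPM) and Prl2c2 (53.2, 51.6, 55.8 and 61.9 CPM), which encode proliferins, were expressed in every library; they are close copies of each other, so their separate levels are uncertain. Of 20 long non-coding RNAs measured 10 were expressed. Malat1 (466, 559, 424 and 454 CPM) and Neat1 (171 ± 10.6 CPM), nuclear RNAs, were the highest in CPM, and the imprinted Meg3, Rian and Mirg were at 0, with H19 detected in 1 library.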
